A study of Homo sapiens with 9 samples.

Results

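The 8 mature arms of 4 miRNA precursors of the blood lineage, miR-142, miR-342, miR-150 and miR-223, were examined in Jurkat cells (clone E6-1), a human line of T lymphoblasts. They are the 8 of 2883 rows of the deposited count table named hsa-miR-142-3p, hsa-miR-142-5p, hsa-miR-342-3p, hsa-miR-342-5p, hsa-miR-150-5p, hsa-miR-150-3p, hsa-miR-223-3p or hsa-miR-223-5p, with a single row each. Small RNA was sequenced from cells that were not activated (0 h) and from cells at 5 h and 12 h of activation, with 3 biological replicates at each time. Activated cells had been given plate-coated antibody to CD3, part of the T cell receptor complex, at 10 µg/mL and antibody to the costimulatory receptor CD28 in the medium at 5 µg/mL. All 9 libraries come from 1 clonal leukaemia line, and no untreated cells were taken at 5 h or 12 h, so activation and time in culture cannot be told apart.

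A miRNA precursor is a hairpin RNA. Drosha and Dicer cut it into a short duplex, and one arm of the duplex is usually kept in an Argonaute protein while the other is lost. The kept arm finds its targets mainly through its seed, bases 2 to 8 counted from its 5′ end. miR-142 is made almost only in blood cells, and mice without it have defects in several immune lineages. miR-150 is abundant in mature lymphocytes and represses the transcription factor MYB. miR-223 is the typical miRNA of granulocytes and monocytes, where it restrains inflammation. miR-342 lies in an intron of EVL, a gene for a regulator of actin, and is found in many blood cells.

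The seeds differed between all 6 arms for which RefSeq (GRCh38.p14) gave a sequence. The mature sequences are shown 5′ to 3′ because the results below separate arms of 1 hairpin, and the capitals mark the seed. miR-150-5p and miR-150-3p are named only.
miR-142-3p: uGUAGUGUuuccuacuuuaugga
miR-142-5p: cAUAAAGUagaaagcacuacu
miR-342-3p: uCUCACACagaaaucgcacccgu
miR-342-5p: aGGGGUGCuaucugugauuga
miR-223-3p: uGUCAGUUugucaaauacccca
miR-223-5p: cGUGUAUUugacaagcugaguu

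The hairpins below show where both arms sit, with the 5p arm as the first run of capitals and the 3p arm as the second.
mir-142: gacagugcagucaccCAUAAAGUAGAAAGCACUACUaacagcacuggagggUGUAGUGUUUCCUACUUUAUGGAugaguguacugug
mir-342: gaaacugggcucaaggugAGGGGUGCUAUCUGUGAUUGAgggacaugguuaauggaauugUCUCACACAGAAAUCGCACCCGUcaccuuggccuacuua
mir-223: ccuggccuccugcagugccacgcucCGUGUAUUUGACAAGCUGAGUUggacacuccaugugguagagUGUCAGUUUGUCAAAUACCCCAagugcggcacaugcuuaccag
The mir-142 hairpin is at chr17:58331232-58331318 on the minus strand, where GENCODE 29 places it in an exon of a noncoding RNA gene of the same strand and opposite the antisense gene TSPOAP1-AS1. The mir-342 hairpin is at chr14:100109655-100109753 on the plus strand, in EVL, and overlaps none of its exons. The mir-223 hairpin is at chrX:66018870-66018979 on the plus strand, in an exon of a noncoding RNA gene of the same strand. The seeds shown were searched for among the other miRNAs of the count table that had a RefSeq sequence. RefSeq gave sequences for 2370 mature names, and the count table holds 2654, so sharers without a sequence could not be found. The seeds of the miR-150 arms were not searched. The search found 1 miRNA, miR-5590-3p, with the seed of miR-142-5p. It had 0 counts in all 9 libraries, which allows up to 0.176 CPM in the deepest library and 0.471 CPM in the shallowest.

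Total table counts lay between 6631839 and 16207031 per library, and levels are in CPM, counts per 1000000 of a TMM-scaled table total. The arms are 21 to 23 bases long, so counts were not divided by length. miR-181a-5p, a miRNA of developing T cells, averaged 29963 ± 2689 CPM in the 0 h libraries, 26374 ± 964 in those of 5 h and 32350 ± 8272 in those of 12 h (SD, n = 3 a time). The erythroid miRNA miR-451a was at 6.11 ± 2.38, 6.24 ± 3.06 and 4.72 ± 3.07 CPM at these times. Not all miRNAs chosen as lymphoid context were high: miR-155-5p was at 2.71 ± 2.85, 9.37 ± 1.38 and 9.36 ± 2.97 CPM. Of 12 miRNAs of tissues outside the blood, 6 had 0 counts in every library: miR-1-3p, miR-133a-3p and miR-206 of muscle, miR-208a-3p of the heart, miR-124-3p of neurons and miR-205-5p of epithelium. The other 6 had counts, and the epithelial miR-200c-3p and miR-141-3p were the most abundant, at 93.3 ± 30.9 and 56.1 ± 4.75 CPM in the 0 h libraries (SD, n = 3).

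The 4 precursors covered a wide range of abundance, with miR-142 and miR-342 high and miR-150 and miR-223 low. miR-142-3p ranked 16th to 17th among mature miRNAs in the 9 libraries and held 1.44% ± 0.212 of the counts (SD, n = 9), with each mature miRNA counted once. miR-342-3p ranked 17th to 19th and held 1.06% ± 0.0713. On average over the libraries, miR-20a-5p stood just above this pair and miR-320a-3p just below it. The lymphocyte arm miR-150-5p ranked 81st to 90th, with 0.0404% ± 0.00341 of the counts. The myeloid arm miR-223-3p ranked 102nd to 119th, with 0.0209% ± 0.00265.

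The order of mean CPM over the 9 libraries was miR-142-3p, miR-342-3p, miR-142-5p, miR-342-5p, miR-150-5p, miR-223-3p, miR-223-5p and miR-150-3p, and each was above the next one in 9 of 9 libraries. Only the ranges of the first pair overlapped: the lowest library of miR-142-3p was at 7425 CPM and the highest of miR-342-3p at 7567 CPM. The ratio of means was 1.35 between that pair, 1.93 between miR-150-5p and miR-223-3p and 2.06 to 4.62 between the other neighbours.

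**Figure D1:**
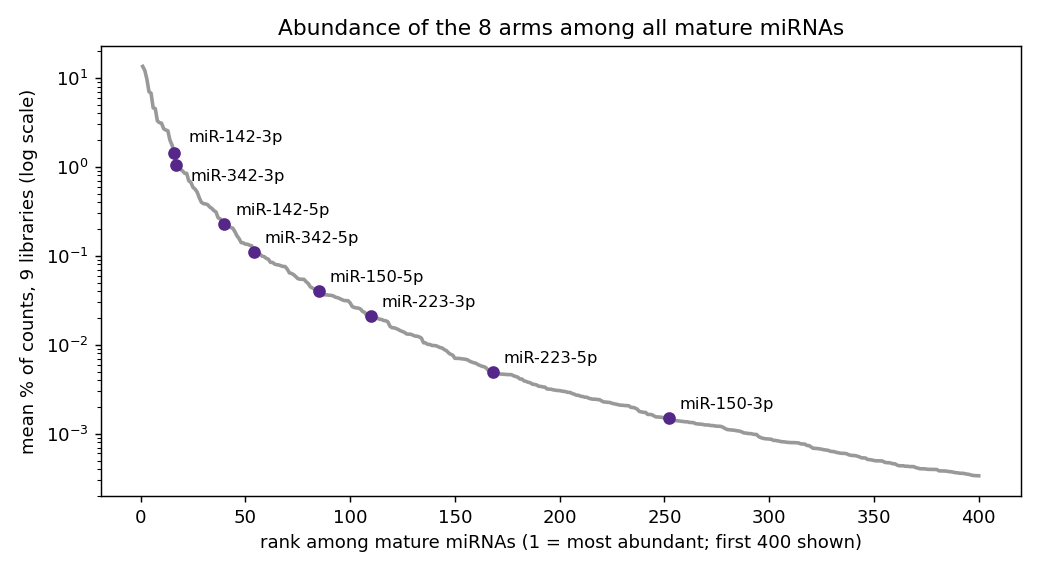
Mean percentage of counts over 9 libraries (log scale) against rank, with each mature miRNA counted once; the line joins all miRNAs up to rank 400 and the points are the 8 arms. miR-142-3p at 1.44% and miR-342-3p at 1.06% lie near the top, and miR-150-3p lies lowest.

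Together the 8 arms held 2.69%, 2.66% and 2.53% of the counts in the 3 libraries at 0 h, 3.07%, 2.96% and 3.06% at 5 h, and 3.30%, 3.08% and 2.83% at 12 h. Every library of activated cells was above every library at 0 h in this sum. The same held for miR-142-3p, its largest part, so the sum does not show that the other arms rose. The sum was not tested. miR-142-3p alone held 1.18%, 1.22% and 1.16% at 0 h, 1.51%, 1.53% and 1.57% at 5 h, and 1.80%, 1.48% and 1.50% at 12 h. The share of miR-342-3p averaged 1.03% ± 0.0606 before activation, 1.07% ± 0.0553 after 5 h of it and 1.08% ± 0.107 after 12 h (SD, n = 3 a time).

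The first comparison asked how these arms stood after 5 h of activation. None of the 8 passed the test at 5 h against 0 h (edgeR quasi-likelihood, adjusted p under 0.05 over 701 tested rows, all 8 arms among them), against 1.57% of all rows. At an unadjusted p under 0.05 there was 1, hsa-miR-142-3p, against 5.99% of all rows, and neither DESeq2 nor limma-voom called any. The members' median log2 change was 0.04, beside 0.03 over all rows. The signs were 6 positive and 2 negative, but 4 and 4 under other settings, DESeq2, upper quartile factors and the stricter filter among them, in which miR-342-3p and miR-150-3p turned negative.

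miR-142-3p was the arm furthest from its 0 h level. It had 9429, 10028 and 9621 CPM at 5 h, against 7425, 7933 and 7933 CPM at 0 h. The groups did not overlap, as in 10.8% of all rows (6.85% with 5 h higher and 3.99% with 5 h lower), and the log2 change was 0.32 (SE 0.10, 95% interval 0.11 to 0.53, n = 3 a group, edgeR adjusted p = 0.253). Its p was the 13th smallest of the 701, where 11 rows passed. This was the 1 arm of the 8 whose 5 h and 0 h libraries did not overlap.

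The second comparison set 12 h against 0 h. Again none of the 8 passed (edgeR), against 1.43% of all rows, with 1 at an unadjusted p under 0.05, against 7.28% of all rows, and 1 with DESeq2 and with limma-voom, miR-142-3p each time. These tools called 13 rows (DESeq2) and 11 rows (limma-voom) in all, beside 10 with edgeR. The members' median log2 change was -0.02, beside 0.01 over all rows. Their signs were 4 positive and 4 negative, or 7 positive and 1 negative with upper quartile factors, where miR-150-3p alone was negative. In 4 of the 8 the groups did not overlap, against 12.1% of all rows: miR-142-3p and miR-223-3p were higher at 12 h in every library (7.13% of all rows), and both arms of miR-150 lower (4.99% of all rows).

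hsa-miR-142-3p had 10981, 9504 and 9973 CPM at 12 h, so that all 3 libraries lay above the 7425 to 7933 CPM of 0 h. The mean was 2389 CPM higher, with a log2 change of 0.39 (SE 0.10, 95% interval 0.18 to 0.60, fold 1.31, edgeR adjusted p = 0.0647). Its p was the 11th smallest, next after the 10 rows that passed. In 5 of 21 alternative settings, among them DESeq2 and limma-voom, the adjusted p was between 0.00533 and 0.0448, and in the other 16 between 0.0507 and 0.566. Under 4 scalings the log2 change was 0.36 to 0.54. Relative to the median of all rows it was 0.37 to 0.38 under each. A scaling moves all rows by nearly the same amount, so this narrow range follows from the subtraction and tests nothing. Without replicate 1 of 12 h, the highest library, the log2 change itself was 0.29.

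hsa-miR-223-3p had 106, 132 and 122 CPM at 0 h, 146, 126 and 125 CPM at 5 h, and 149.6, 141 and 157 CPM at 12 h. The 5 h libraries overlapped those of 0 h, and the 12 h libraries were above both the 0 h range and all but 1 library of 5 h. The log2 change was 0.31 at 12 h (SE 0.16, 95% interval -0.03 to 0.65, edgeR adjusted p = 0.734) and 0.14 at 5 h (SE 0.16, adjusted p = 0.996). Leaving out single libraries moved the 5 h value between 0.025 (without replicate 1 of 5 h, the highest of that time) and 0.18. Its opposite arm miR-223-5p spread far more between replicates, at 22.3, 45.7 and 20.6 CPM at 0 h, 33.9, 37.3 and 28.6 at 5 h, and 34.4, 41.8 and 20.6 at 12 h. At each time the library numbered 2 was the highest and the library numbered 3 the lowest for this arm. The log2 change at 12 h was 0.13 with a 95% interval of -0.56 to 0.82, so that a change of up to 1.76-fold upward lies within it.

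hsa-miR-150-5p had 279.9, 272 and 261 CPM at 0 h, 280.4, 230.1 and 266 CPM at 5 h, and 230.1, 250.2 and 259 CPM at 12 h. The 12 h libraries all lay just under those of 0 h. Its log2 change at 12 h was -0.14 (SE 0.14, 95% interval -0.42 to 0.15, edgeR adjusted p = 0.974), and it turned to 0.017 with upper quartile factors, which raised the median of all rows by 0.16.

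The less abundant arm hsa-miR-150-3p had 145, 169 and 74 counts at 0 h, 156, 94 and 160 at 5 h, and 53, 70 and 57 at 12 h. In CPM these were 9.32, 12.9 and 11.3 at 0 h, 14.6, 9.65 and 9.39 at 5 h, and 3.96, 5.91 and 8.95 at 12 h. The 12 h libraries were below all others, with a mean of 6.27 ± 2.51 CPM at 12 h against 11.2 ± 1.80 CPM in the 0 h libraries (SD, n = 3 each). The log2 change was -0.84 against 0 h (SE 0.43, 95% interval -1.75 to 0.07, edgeR adjusted p = 0.734). It was -0.63 without replicate 1 of 12 h and -1.21 without replicate 3 of 12 h, the shallowest library.

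Both arms of miR-342 and miR-142-5p had overlapping groups in every comparison. hsa-miR-342-3p had 6911, 6512 and 6769 CPM at 0 h, 7013, 6658 and 6643 at 5 h, and 6649, 7567 and 6408 at 12 h. Replicate 2 of 12 h held the highest value and replicate 3 of 12 h the lowest. The 95% interval of its log2 change was -0.20 to 0.22 at 5 h and -0.18 to 0.24 at 12 h, or 0.881-fold to 1.18-fold at 12 h.

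miR-342-5p had 754, 821 and 731 CPM at 0 h, 627, 743 and 676 at 5 h, and 571, 795 and 717 at 12 h. Its highest library was at 0 h and its lowest at 12 h, with a log2 change of -0.17 at 5 h (95% interval -0.45 to 0.11) and -0.15 at 12 h (-0.43 to 0.13). miR-142-5p had 1380.1, 1564 and 1457 CPM at 0 h, 1639, 1615 and 1366 at 5 h, and 1458, 1488 and 1261 at 12 h. Its log2 change was 0.07 at 5 h (95% interval -0.18 to 0.32) and -0.07 at 12 h (-0.31 to 0.18). That interval at 12 h did not reach the 0.39 of the opposite arm, but the difference between arms is tested by their ratio.

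**Figure D2:**
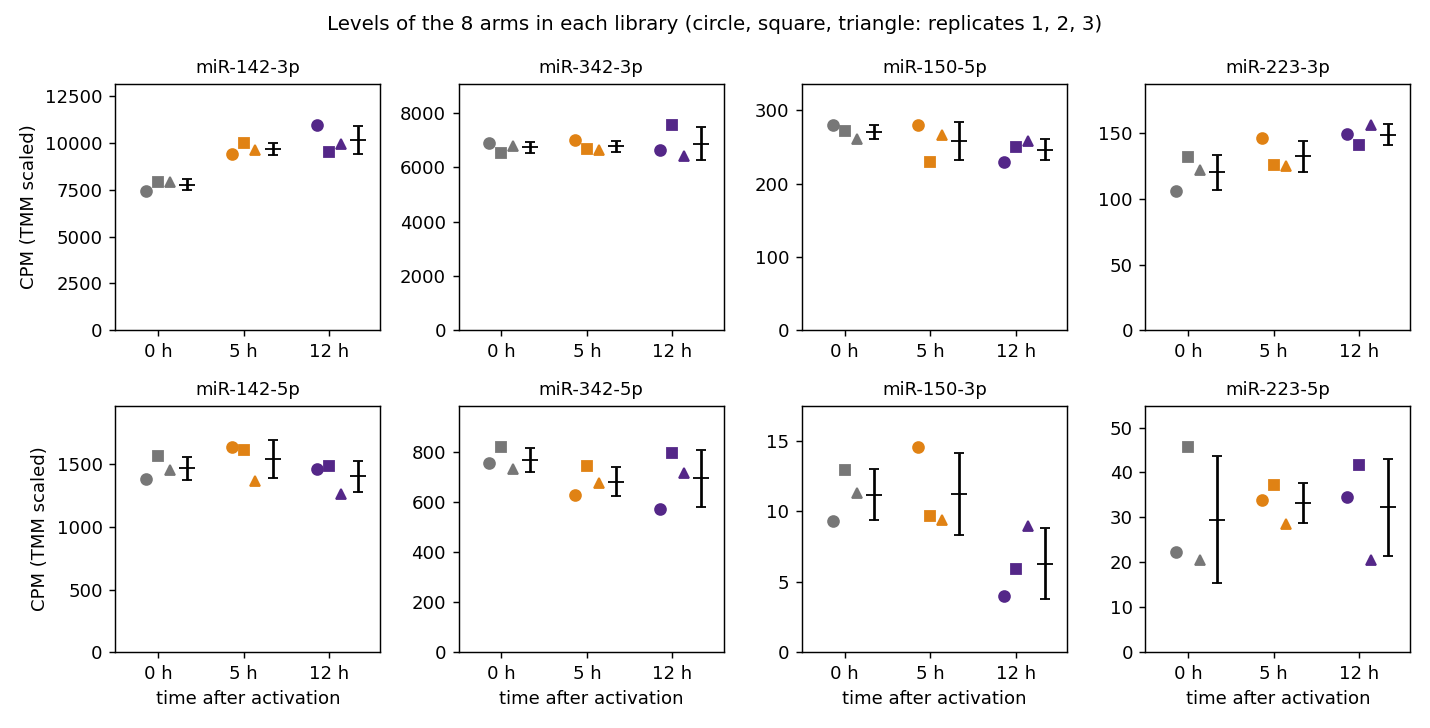
CPM of each arm in each library at 0 h, 5 h and 12 h; circles, squares and triangles are replicates 1, 2 and 3, and black bars are the mean with the SD over 3 libraries. miR-142-3p at 5 h and 12 h lies above all its 0 h libraries, miR-150-3p at 12 h lies below all others, and miR-223-5p spreads from 20.6 to 45.7 CPM.

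The third comparison set 12 h against 5 h. None of the 8 passed (edgeR, against 0.571% of all rows), none had an unadjusted p under 0.05 (6.13% of all rows), and neither DESeq2 nor limma-voom called any. The groups of 1 arm, miR-150-3p, did not overlap, against 12.8% of all rows (4.99% with 12 h higher and 7.85% with 12 h lower), with a log2 change of -0.85 (SE 0.43, edgeR adjusted p = 0.720). miR-142-3p had a log2 change of 0.07 (95% interval -0.14 to 0.28) between these times and miR-223-3p one of 0.17 (-0.17 to 0.51). In bulk RNA, a change in the share of cells that make a miRNA cannot be told apart from a change in its level per cell.

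**Figure D3:**
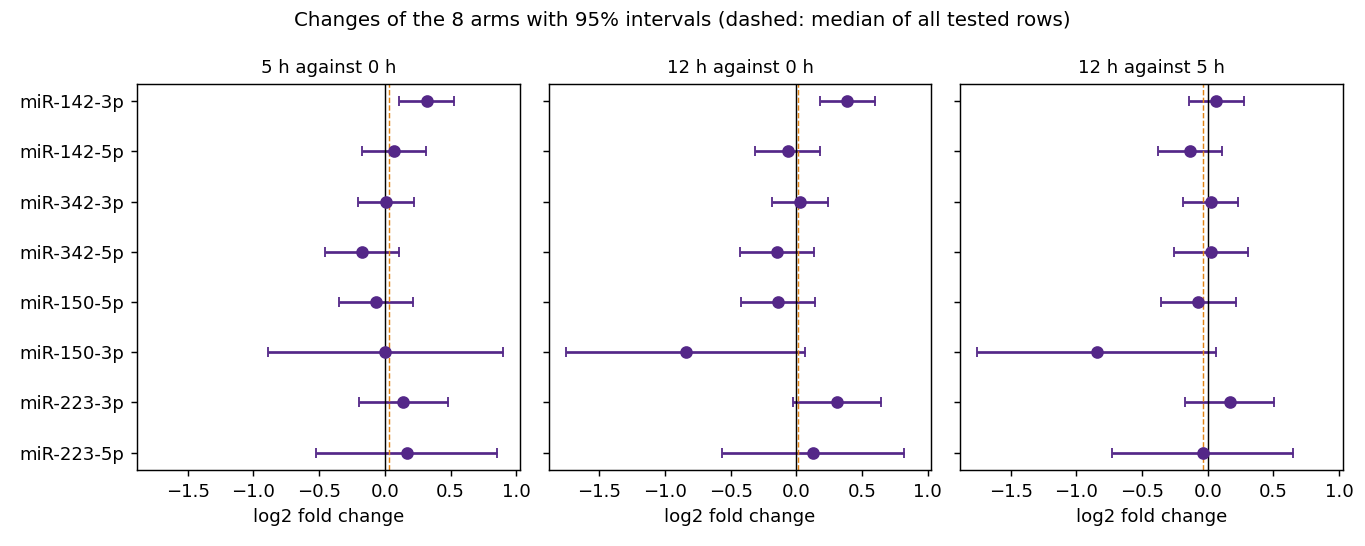
Log2 fold change of each arm in the 3 comparisons (points) with its 95% interval from the edgeR fit (bars); the solid line is 0 and the dashed line the median of the 701 tested rows. The intervals of miR-142-3p at 5 h (0.11 to 0.53) and 12 h (0.18 to 0.60) against 0 h lie above 0, and those of the other 7 arms include 0.

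The arms of each hairpin were then compared by their counts within libraries, where scaling cancels out. Whether arms of different sequence are captured alike in a library was not tested. The 3p arm was the more abundant one for miR-142, miR-342 and miR-223, and the 5p arm for miR-150. As the sequences above show, the more abundant arm began with U and the other arm with C or A in each of the 3 hairpins with sequences. Over 139 precursors with both arms tested and both sequences known, 55 (39.6%) had U at the start of the more abundant arm and another base at the start of the other.

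The 3p arm of mir-142 held 84.3%, 83.5% and 84.5% of the counts of both arms at 0 h, 85.2%, 86.1% and 87.6% at 5 h, and 88.3%, 86.5% and 88.8% at 12 h. Both activated groups lay above 0 h with no overlap, as in 18.2% of 165 precursors, either way, at 5 h and 14.5% at 12 h. The ratio of 3p to 5p counts averaged 7.28 ± 0.792 at 12 h, against 5.30 ± 0.199 in the 0 h libraries (SD, n = 3 each). The log2 ratio was 0.45 higher at 12 h than at 0 h (SE 0.25, limma adjusted p = 0.733, exact two-sided permutation p = 0.1) and 0.25 higher at 5 h (SE 0.25, limma adjusted p = 0.818, exact permutation p = 0.1). The smallest p that 3 against 3 libraries allow is 0.1, so the permutation test could not pass. The difference between the miR-142 arms in their change therefore did not pass a test. The limma SE is drawn toward the spread of all 165 precursors, some with few counts and a wide spread (mir-2355, SE 3.14). Not passing thus does not show that both arms changed alike.

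No ratio of these 4 precursors, and none of all 165, passed in limma at any comparison. At an unadjusted p under 0.05 there were 9, 11 and 12 of the 165 at 5 h against 0 h, 12 h against 0 h and 12 h against 5 h (5.45%, 6.67% and 7.27%), none of them one of the 4.

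The 3p arm of mir-150 held 2.45% ± 0.835 of its counts at 12 h, against 3.97% ± 0.671 in the 0 h libraries (SD, n = 3 each), and the ranges overlapped. At 5 h it held 4.12% ± 0.767, and the 12 h libraries lay below all of 5 h, as groups did not overlap in 15.2% of precursors in that comparison. Replicate 3 of 12 h, at 3.34% (exact 95% interval 2.54% to 4.31%), lay above replicate 1 of 0 h, at 3.22% (2.73% to 3.78%). The log2 ratio differed by -0.75 between 12 h and 0 h (SE 0.35, limma adjusted p = 0.662, exact permutation p = 0.2).

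For mir-342 the 3p share was 89.7% ± 0.812 at 0 h, 90.8% ± 0.918 at 5 h and 90.8% ± 1.12 at 12 h, with overlap throughout. For mir-223 it was 80.9% ± 5.86, 79.9% ± 2.38 and 82.3% ± 5.68. The library numbered 2 had the lowest mir-223 share at each time, at 74.3%, 77.2% and 77.2%.

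**Figure D4:**
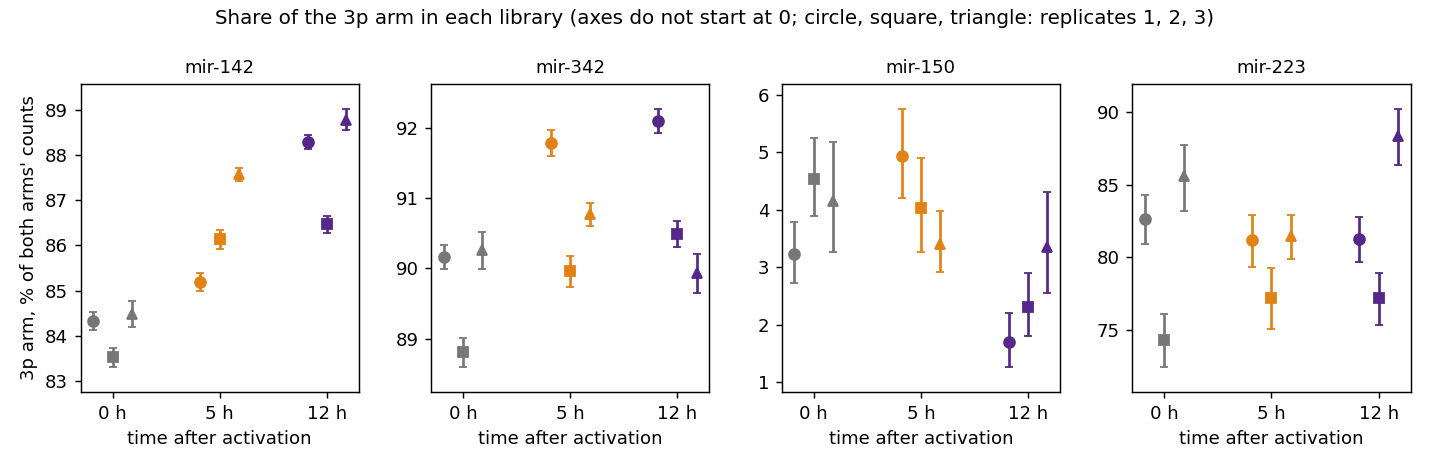
Percentage of the counts of both arms that came from the 3p arm, in each library at 0 h, 5 h and 12 h; circles, squares and triangles are replicates 1, 2 and 3, and bars are exact 95% binomial intervals, which cover counting error only. The mir-142 share of every activated library lies above those of 0 h, and the mir-223 share of the library numbered 2 is the lowest at each time.

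Other miRNAs were ranked by how closely their log2 CPM followed a member over the 9 libraries, each centred on its own mean. Among 113 other miRNAs with at least 100 CPM, the nearest to miR-142-3p was miR-222-3p, known to target the cyclin-dependent kinase inhibitor p27, with a root mean square difference of 0.122. miR-103a-3p followed at 0.125 and miR-19a-3p at 0.135, where the median over the 113 was 0.247. miR-222-3p had log2 changes of 0.49 at 5 h and 0.44 at 12 h, beside the 0.32 and 0.39 of miR-142-3p. The nearest miRNAs were chosen on these same libraries, so changes close to those of a member follow from the choice.

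miR-342-3p was nearest to miR-625-5p (0.055), miR-378a-3p (0.063) and miR-671-5p (0.073), all with changes between -0.06 and 0.08 at both times. miR-150-5p was nearest to miR-140-3p (0.090), miR-181a-3p (0.095) and miR-378a-3p (0.0999). miR-223-3p was nearest to miR-320b (0.13), miR-19a-3p (0.13) and let-7i-5p (0.14). These distances describe the 9 libraries, which the miRNAs share, and miR-19a-3p and miR-378a-3p each appear for a pair of members.

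Of 11 other miRNAs chosen as lymphoid context, all tested, 1 passed in each comparison: miR-146a-5p, an NF-kB target that restrains TRAF6 and IRAK1. It was higher at the later time in each. Over all rows 1.57%, 1.43% and 0.571% passed at 5 h against 0 h, 12 h against 0 h and 12 h against 5 h. At an unadjusted p under 0.05 there were 2, 3 and 2 of the 11, against 5.99%, 7.28% and 6.13% of all rows. The log2 change of miR-146a-5p was 0.90 at 5 h and 1.79 at 12 h (edgeR adjusted p = 0.000159 and 1.1e-08). It was 0.88 at 12 h against 5 h (edgeR adjusted p = 0.000349). miR-155-5p had a log2 change of 1.84 both at 5 h and at 12 h against 0 h, larger than that of miR-146a-5p. With 9 to 151 counts a library it did not pass (edgeR adjusted p = 0.538 and 0.511). The list's median log2 change was 0.08 at 5 h and 0.11 at 12 h. Of 5 erythroid miRNAs 2 could be tested, and of 6 stem cell, progenitor and endothelial miRNAs 4. None of these passed in edgeR, DESeq2 or limma-voom, with 0 of 2 and 1 of 4 at an unadjusted p under 0.05 at 12 h against 0 h (7.28% of all rows). Their summed levels were 4.24 to 10.8 CPM (erythroid) and 35.4 to 43.4 CPM (stem cell, progenitor and endothelial) at 0 h, and 4.24 to 11.1 and 26.1 to 46.9 CPM at 12 h.

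Of the 12 miRNAs of tissues outside the blood, 5 were tested. None passed in edgeR, DESeq2 or limma-voom, and 1 of the 5 had an unadjusted p under 0.05 at each comparison, against 5.99%, 7.28% and 6.13% of all rows at 5 h against 0 h, 12 h against 0 h and 12 h against 5 h. miR-200c-3p averaged 113 ± 13.8 CPM in the 5 h libraries and 103 ± 17.1 in those of 12 h, and miR-141-3p 54.6 ± 4.02 and 77.3 ± 17.5 CPM at these times (SD, n = 3 a time). The liver miRNA miR-122-5p had 1139 counts in replicate 3 of 5 h and averaged 23.0 ± 37.9 CPM over the 5 h libraries. The summed level of this list was 131 to 192 CPM at 0 h, 169 to 264 at 5 h and 169 to 214 at 12 h, and its part in the miR-142-3p values was not tested.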

How the data were processed

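The authors deposited raw counts per pair of precursor and mature miRNA, and a table of log2 normalised values with 430 rows, those with counts in every library, which served only as an alternative. The submitters' processing notes name the build GRCh38.p13 and DESeq2. The aligner is not given in the sources used here. Per the labels' protocols, a column kit gave the total RNA and a RealSeq kit the libraries.

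The filterByExpr rule (minimum count 10, minimum total 15) kept 701 rows. Counts were scaled by TMM and fitted in edgeR 4.0.16 (R 4.3.3) with 1 mean per time over all 9 libraries, without a replicate block. Adjusted p-values are Benjamini-Hochberg over the 701 rows, with a threshold of 0.05. The log2 ratio of 3p to 5p counts, each plus 0.5, was fitted with limma 3.58.1 over 165 precursors. Simulated data with known answers were used to test both fits. In edgeR a simulated log2 change of 1, up or down, was called in 32 of 100 rows. Among rows with at least 100 CPM it was called in 23 of 23. Of rows simulated without a change, 7 of 501 were called, and 1 of 95 among those with at least 100 CPM. The counts were drawn from the model that edgeR fits, with the spread fitted to these data, so the model itself was not tested. Smaller changes were not simulated. The ratio simulation called 20 of 20 log2 changes of 1, and 1 of 145 precursors without a change. It gave all precursors the same spread, so this does not carry over to ratios with a wider spread. CPM use table totals, in which rows repeated per precursor count each time.

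The members and lists were chosen with earlier results of these data known. Named in the text are the 8 arms, miRNAs found with a shared seed, the 3 nearest miRNAs of each more abundant arm and neighbours in rank. List members that passed or were most abundant are named too. miR-122-5p, miR-155-5p and the miRNAs at 0 were named after their values were seen. Replicates were not duplicates: chi-square over degrees of freedom was 55.7 or more. The labels do not say that the replicates were grown apart beyond calling them biological, so p-values measure the spread between these libraries. In edgeR and limma that spread is shared in part with the other rows or precursors. Intervals and floors (3 counts) hold for counting error alone, as reads lacking molecular identifiers need not be independent. Alternatives were other scalings (DESeq2-style factors, library totals, upper quartile), other filters, DESeq2 1.42.0, limma-voom, only the 2 groups compared, a replicate block, 1 row per mature miRNA, the deposited log2 values, and leaving out each library or both shallowest ones. For the ratios they were an offset of 5 counts, a minimum of 10 CPM, permutation, and, added after seeing the data, a prior spread that follows abundance. Figures used Python 3.11.15 and matplotlib 3.10.9.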

Additional observations from a re-analysis of the deposited data

How the results depend on the processing

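No arm passed at 5 h against 0 h or at 12 h against 5 h under any of 21 alternatives. At 12 h against 0 h, 1 arm, miR-142-3p, passed with DESeq2, upper quartile factors, limma-voom, 1 row per mature miRNA and the stricter filter (13, 10, 11, 12 and 11 rows called in all, in that order), and its log2 change was positive throughout (0.29 to 0.54); leaving out single libraries gave adjusted p-values of 0.153 to 0.566. Over all rows, the calls at 5 h against 0 h were 17 with no filter and 5 with limma on the deposited log2 values, beside 11. At 12 h against 0 h they were 6 with only the 2 groups compared and 6 with the deposited values, beside 10. At 12 h against 5 h they were 12 with no filter and 11 with the replicate block, beside 4, and 3 to 10 with single libraries left out. Same-numbered libraries correlated at -0.53 to 0.64 over 119 miRNAs, and differently numbered ones at -0.73 to 0.73. With 3 libraries a time, such values cannot show whether the numbers pair them. The block changed no call of the 8 arms.

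Every reversed log2 change was one that passed no test; the cause was not tested. At 5 h against 0 h, miR-342-3p (0.0088) was -0.020 with DESeq2-style factors, no filter, DESeq2 and 1 row per mature miRNA, -0.00031 with upper quartile factors, -0.063 with the stricter filter, -0.0095 with only the 2 groups and -0.022 with the deposited values. There miR-150-3p (0.0029) was -0.026 with DESeq2-style factors and DESeq2, -0.0065 with upper quartile factors, -0.029 with no filter, -0.067 with the stricter filter, -0.024 with limma-voom and 1 row per mature miRNA, -0.019 with only the 2 groups and -0.044 with the deposited values. Upper quartile factors, which raised all rows by 0.16, gave 0.092, 0.010 and 0.017 for miR-142-5p, miR-342-5p and miR-150-5p at 12 h against 0 h. Against 5 h they gave 0.028, 0.095 and 0.12 for miR-142-5p, miR-150-5p and miR-223-5p. For miR-223-5p, 12 h against 5 h was 0.0054 with the stricter filter, 0.012 with limma-voom and 0.19 without the 2 shallowest libraries. Without those 2, miR-223-5p was -0.029 at 5 h against 0 h, miR-342-5p -0.013 at 12 h against 5 h, and the mir-223 ratio 0.11 at 5 h against 0 h and -0.063 at 12 h against 5 h.

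Leaving out single libraries at 5 h against 0 h gave -0.020 to 0.12 for miR-142-5p, -0.057 to 0.057 for miR-342-3p, -0.27 to 0.080 for miR-150-3p and -0.038 to 0.59 for miR-223-5p. At 12 h against 0 h it gave -0.064 to 0.044 for miR-342-3p and -0.11 to 0.55 for miR-223-5p. At 12 h against 5 h it gave -0.019 to 0.12 for miR-142-3p, -0.050 to 0.065 for miR-342-3p, -0.082 to 0.12 for miR-342-5p, -0.12 to 0.0014 for miR-150-5p and -0.27 to 0.19 for miR-223-5p. Of the log2 arm ratios, mir-150 ranged from -0.093 to 0.19 at 5 h against 0 h, and mir-342 from -0.11 to 0.087 at 12 h against 5 h. The mir-223 ratio ranged from -0.41 to 0.11, -0.18 to 0.40 and -0.063 to 0.52 in the 3 comparisons.

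No ratio of the 4 precursors passed in any setting. Over all precursors, a minimum of 10 CPM for both arms gave 1 call in each comparison, a prior spread that follows abundance, an alternative chosen after seeing the data, gave 1 at 5 h against 0 h and 1 at 12 h against 5 h, and leaving out single libraries gave 0 to 2, 0 to 4 and 0 to 1 in the 3 comparisons. miR-150-3p had the fewest counts of the 8 arms, 53 to 169 a library, and a biological coefficient of variation of 40.9%, against 12.0% for miR-142-3p; the part of depth in this was not tested.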
